A study of Homo sapiens with 6 samples.

Results

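The genes described here serve protein folding and quality control in the endoplasmic reticulum (ER): sensors of the unfolded protein response with the transcription factor XBP1, folding enzymes and chaperones, the channel through which new proteins enter, and the machinery that returns misfolded proteins for degradation. The 41 genes were taken by symbol from a list of known ER genes, out of 26485 gene symbols in the count table. Expression was high enough for a test in 40 of them, and ERO1B, an ER oxidase, was too low. The samples were PC-9 cells, which come from a human lung adenocarcinoma with mutant EGFR. One population, shIFITM3, stably expressed a short hairpin RNA against IFITM3, an interferon-induced membrane protein of the endosome and cell surface. The other, shControl, is the control population, and its columns in the table are named ShEV. Both populations were grown in RPMI with fetal bovine serum, and no drug treatment is named in the labels. The labels give 3 biological replicates for each of the 2 groups. They do not say whether these were separate cultures or separate transductions, so p-values measure the spread between these samples only. The sources used here give neither the hairpin sequences nor how many hairpins were used.

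In the unfolded protein response, misfolded proteins in the ER draw the chaperone BiP (HSPA5) away from membrane sensors. The sensor IRE1 (ERN1) splices XBP1 mRNA so that it encodes an active transcription factor, ATF6 is cut to release another, and PERK (EIF2AK3) slows translation. XBP1 and ATF6 raise genes for chaperones and for ER-associated degradation (ERAD), which pulls misfolded proteins back to the cytosol for the proteasome. Counts per gene do not separate spliced from unspliced XBP1 mRNA, and cleavage of ATF6 leaves no trace in them.

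ATF6 and XBP1 act through short DNA elements, and the promoters of 6 members are shown because they carry the letters of such elements: 4 of genes that rose in shIFITM3 cells and 2, of CRELD2 and CANX, of genes that did not pass the test. The letters searched, on both strands, were CCAAT and CCACG with 9 bases of any kind between them (ERSE), ATTGG and CCACG with 1 base between them (ERSE-II), and TGACGTGG (UPRE). Sequences are from RefSeq on GRCh38.p14, from 250 bases before to 50 bases after a start of the gene, written 5′ to 3′ in the direction of the gene, with matches, gap included, in capitals. HERPUD1 lies at chr16:56931892-56932191, plus strand, XBP1 at chr22:28800520-28800819, minus strand, HYOU1 at chr11:119057156-119057455, minus strand, SDF2L1 at chr22:21642052-21642351, plus strand, CRELD2 at chr22:49918384-49918683, plus strand, and CANX at chr5:179698679-179698978, plus strand. RefSeq lists several starts for 7 members, and the first one listed was used. In CANX that start lies 20273 bases inside the gene as annotated, while the other 5 windows shown are at the gene's outer end. In HYOU1 the first ERSE-II match overlaps the UPRE match.
HERPUD1: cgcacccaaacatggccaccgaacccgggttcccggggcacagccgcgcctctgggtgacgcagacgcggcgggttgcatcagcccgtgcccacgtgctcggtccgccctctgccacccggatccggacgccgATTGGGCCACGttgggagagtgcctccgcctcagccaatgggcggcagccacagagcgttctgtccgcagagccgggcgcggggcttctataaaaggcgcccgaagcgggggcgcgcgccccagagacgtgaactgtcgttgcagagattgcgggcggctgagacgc
XBP1: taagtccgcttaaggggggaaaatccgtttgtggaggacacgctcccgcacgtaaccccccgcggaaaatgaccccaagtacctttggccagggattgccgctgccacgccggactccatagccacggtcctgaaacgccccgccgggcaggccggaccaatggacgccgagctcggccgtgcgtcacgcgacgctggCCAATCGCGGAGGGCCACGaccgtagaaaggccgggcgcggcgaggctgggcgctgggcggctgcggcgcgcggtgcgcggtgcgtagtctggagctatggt
HYOU1: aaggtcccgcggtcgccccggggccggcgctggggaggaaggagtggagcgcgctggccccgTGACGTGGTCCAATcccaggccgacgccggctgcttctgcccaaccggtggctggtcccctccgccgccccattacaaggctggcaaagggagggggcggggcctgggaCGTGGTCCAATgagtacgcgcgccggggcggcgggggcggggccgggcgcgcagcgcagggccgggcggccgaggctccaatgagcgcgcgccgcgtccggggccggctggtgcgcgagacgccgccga
SDF2L1: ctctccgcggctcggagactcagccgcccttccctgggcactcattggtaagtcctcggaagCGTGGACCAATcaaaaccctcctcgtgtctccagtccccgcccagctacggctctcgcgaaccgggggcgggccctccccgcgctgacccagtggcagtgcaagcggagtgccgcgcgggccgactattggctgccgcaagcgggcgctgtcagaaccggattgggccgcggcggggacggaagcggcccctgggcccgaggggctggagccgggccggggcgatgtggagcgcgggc
CRELD2: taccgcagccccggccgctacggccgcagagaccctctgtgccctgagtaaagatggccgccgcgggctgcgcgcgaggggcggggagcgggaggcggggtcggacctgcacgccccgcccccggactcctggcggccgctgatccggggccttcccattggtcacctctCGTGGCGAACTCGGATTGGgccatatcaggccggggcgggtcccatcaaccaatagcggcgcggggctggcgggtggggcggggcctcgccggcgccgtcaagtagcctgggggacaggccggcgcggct
CANX: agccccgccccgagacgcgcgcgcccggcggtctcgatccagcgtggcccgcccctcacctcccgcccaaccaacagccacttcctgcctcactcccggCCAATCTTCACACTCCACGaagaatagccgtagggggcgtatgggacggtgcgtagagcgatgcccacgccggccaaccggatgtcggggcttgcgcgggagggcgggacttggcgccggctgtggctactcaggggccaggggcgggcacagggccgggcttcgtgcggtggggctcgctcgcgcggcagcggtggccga

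Total counts per library were between 21965506 and 23852371 in shIFITM3 samples and between 21342028 and 77228760 in shControl samples, of which shControl replicate 2 was the deepest. Levels are in CPM, counts per 1000000 counts after TMM scaling of the libraries. IFITM3 (chromosome 11, 319676 to 320860; positions here are on GRCh38.p14) had 10.4, 12.9 and 9.75 CPM in shIFITM3 samples, against 57.0, 60.5 and 62.8 CPM in shControl samples, so the targeted gene went with the labels of all 6 samples (log2 fold change -2.45, SE 0.0794, edgeR adjusted p = 5.97e-18). The 6 epithelial markers EPCAM, KRT8, KRT18, KRT19, CDH1 and EGFR summed to between 6520 and 6748 CPM in shIFITM3 samples and between 7623 and 7664 CPM in shControl samples. Single epithelial markers moved apart: EGFR (log2 fold change 0.74) and EPCAM (0.094) rose, CDH1 (-0.60), KRT8 (-0.50) and KRT18 (-0.29) fell, and KRT19 (0.033) did not pass. Of plasma cells, whose secretory programme depends on XBP1, the markers JCHAIN, MZB1 and TNFRSF17 each averaged below 0.1 CPM in both groups, and PRDM1 averaged 3.77 CPM in shIFITM3 and 1.63 CPM in shControl samples. With SDC1, which epithelia also express, the 5 plasma cell markers summed to 269 to 282 CPM in shIFITM3 samples and 274 to 289 CPM in shControl samples. The 5 immune markers summed to between 4.96 and 5.23 CPM in shIFITM3 samples and between 1.12 and 1.79 CPM in shControl samples. Of these CSF1R averaged 4.40 CPM in shIFITM3 and 0.922 CPM in shControl samples (log2 fold change 2.40). PTPRC averaged 0.321 CPM in shIFITM3 and 0.288 CPM in shControl samples. Endothelial markers summed to 5.26 to 6.28 CPM in shIFITM3 samples and 3.43 to 4.29 CPM in shControl samples, within which KDR (3.03) and CDH5 (1.68) rose and PECAM1 (-1.66) fell on the log2 scale. Fibroblast markers summed to 9.996 to 13.7 CPM in shIFITM3 samples and 9.16 to 10.5 CPM in shControl samples, with DCN at 0 counts throughout. The part of these markers in the results was not tested.

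Of the 40 tested genes, 14 rose and 8 fell in shIFITM3 cells, and 18 did not pass (edgeR quasi-likelihood test with Benjamini-Hochberg adjustment over all 14018 tested genes, adjusted p under 0.05). A gene is said here to rise or fall only where it passed. The 22 called genes are 55% of the 40, and 56.1% of all tested genes were called. Rises made up 35% of the members and 27.7% of all tested genes, and falls 20% and 28.4%. Over genes of all levels the share of members called thus lay close to the background. Members called at 2-fold or more were DERL3 and HERPUD1, 5% of those tested, and 6.52% of all tested genes reached that size. DERL3 was high enough for a test only in shIFITM3 samples, so its place among the rises, here and below, is no support. In 24 members (60%) the lowest sample of one group lay above the highest of the other; this held in 60.9% of all tested genes. The median log2 fold change was 0.028 over the members and -6.3e-05 over all tested genes, and the median absolute values were 0.11 and 0.25. Of well-expressed genes, at 5 or more in average log2 CPM, 17 of 32 members (53.1%) and 71.3% of all tested genes were called. At that level members were thus called less often. In bulk samples, fewer cells that express a gene and less RNA per cell cannot be told apart.

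**Figure D1:**
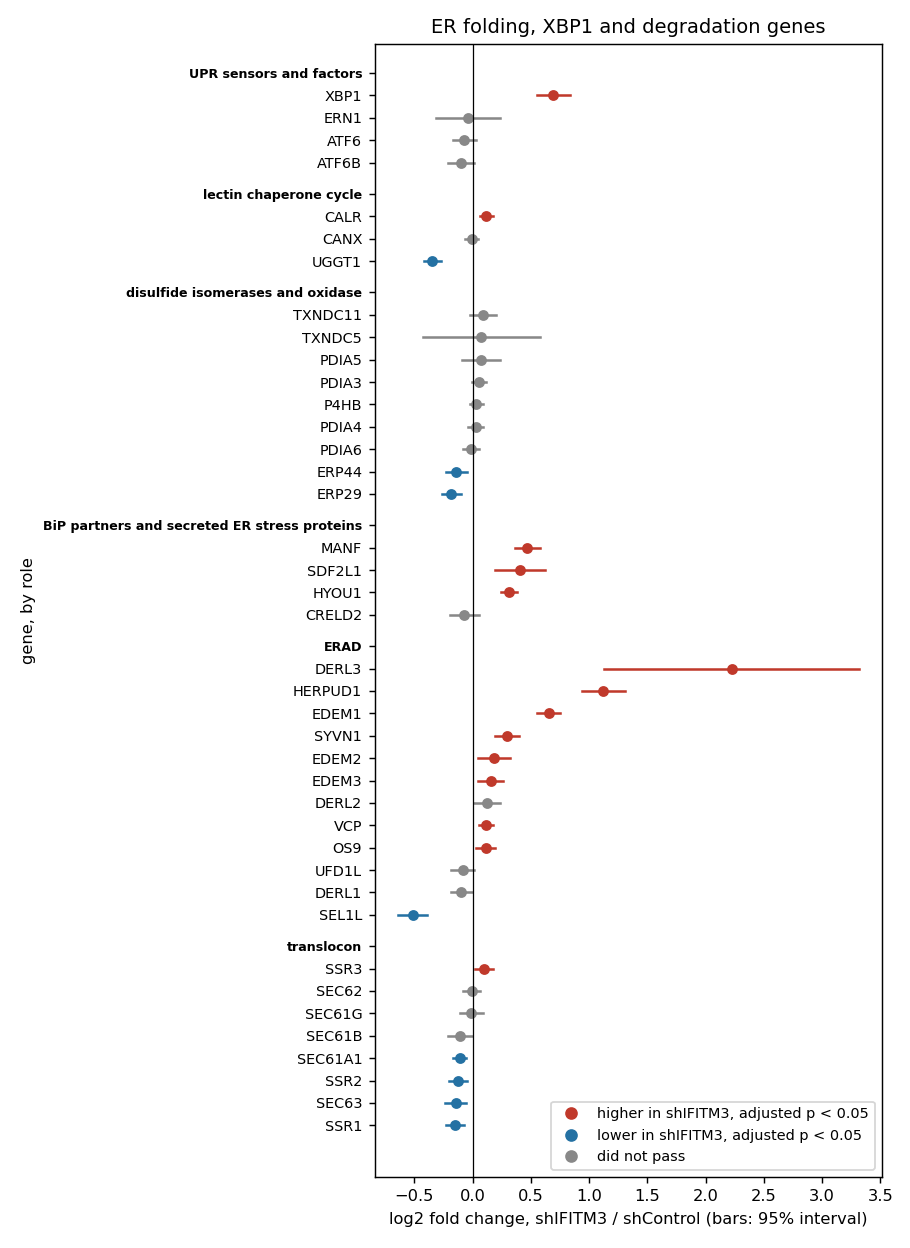
Log2 fold change of shIFITM3 over shControl (horizontal axis) for the 40 tested genes, grouped by role down the page, with points for the estimate and bars for its 95% interval. ERAD genes and BiP partners lie mostly to the right of 0 and translocon genes mostly to the left, with DERL3 (2.23) and SEL1L (-0.51) at the ends.

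Most called changes were small. In a test against a 1.2-fold change, 7 of the 22 called genes passed: HERPUD1, EDEM1, XBP1, MANF and DERL3 higher and SEL1L and UGGT1 lower in shIFITM3. By the same test 2028 of the 14018 tested genes were higher and 1470 lower, against 5 and 2 of the 40 tested members. The calls of 5 genes, EDEM2, EDEM3, OS9, SSR2 and SSR3, were also lost under one or more other settings, named beside their values.

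XBP1 rose, while ERN1, ATF6 and ATF6B did not pass the test. The third sensor gene, EIF2AK3, is not a member and is given with the PERK arm. XBP1 (chromosome 22, 28794560 to 28800569) had 38.6, 37.4 and 43.3 CPM in shIFITM3 samples, against 23.4, 24.7 and 25.5 CPM in shControl samples. All shIFITM3 samples lay above all shControl samples. XBP1 averaged 39.7 ± 3.12 CPM in shIFITM3 and 24.5 ± 1.07 CPM in shControl samples (SD, with n = 3 in each group, as throughout). The log2 fold change was 0.69 (SE 0.0679, edgeR adjusted p = 5.59e-09), or 1.62-fold. ERN1 (chromosome 17, 64039142 to 64130144), which encodes the kinase and RNase IRE1 that splices XBP1, had 5.32, 5.83 and 5.82 CPM in shIFITM3 samples, against 5.51, 5.87 and 5.98 CPM in shControl samples. Its ranges overlapped, and the log2 fold change was -0.038 with a 95% interval of -0.32 to 0.24 (edgeR adjusted p = 0.829). ATF6 (chromosome 1, 161766320 to 161964070), the membrane-bound transcription factor released by cleavage, had 72.1, 65.6 and 68.2 CPM in shIFITM3 samples, against 71.8, 71.0 and 73.9 CPM in shControl samples. The groups overlapped, with a log2 fold change of -0.072 (95% interval -0.17 to 0.026, edgeR adjusted p = 0.203). Its paralog ATF6B (chromosome 6, 32115264 to 32128246) had 52.8, 61.3 and 56.7 CPM in shIFITM3 samples, against 60.6, 61.8 and 60.3 CPM in shControl samples. shIFITM3 replicate 2 lay within the shControl range and the other 2 below it (log2 fold change -0.10, 95% interval -0.21 to 0.013, edgeR adjusted p = 0.124). ATF6B passed as lower after a GC and length correction (adjusted p = 0.0376) and without shIFITM3 replicate 2 (adjusted p = 0.0186, log2 fold change -0.15). Its exons share 71 bases with TNXB on the same strand, which averaged 8.70 CPM in shIFITM3 and 24.2 CPM in shControl cells.

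**Figure D2:**
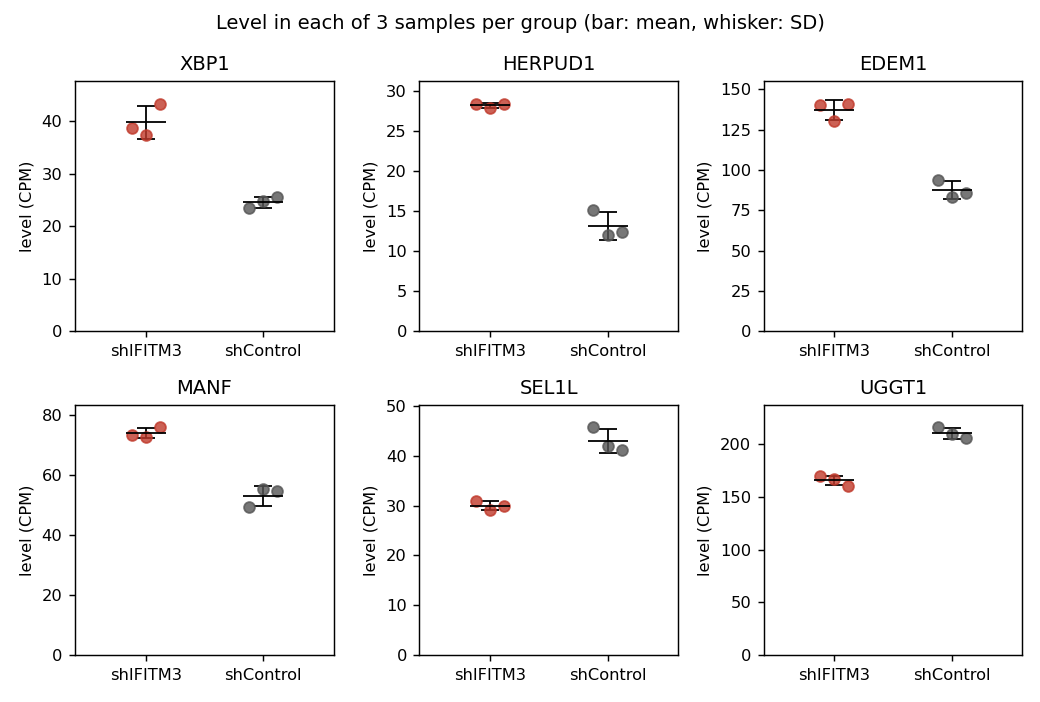
Level in CPM (vertical axis, from 0) of 6 genes in each of the 3 shIFITM3 samples (left, red) and the 3 shControl samples (right, grey), with a bar for the mean and whiskers for the SD. XBP1, HERPUD1, EDEM1 and MANF are higher in every shIFITM3 sample than in any shControl sample, and SEL1L and UGGT1 are lower.

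The ERAD genes held the largest rises. Of 12 tested genes 8 rose (66.7%) and 1 fell (8.33%), with a median log2 fold change of 0.14. The 8 include DERL3, which was kept for testing only through its shIFITM3 samples. Over all tested genes 27.7% rose and 28.4% fell. Without shIFITM3 replicate 3 the rises numbered 5. HERPUD1 (chromosome 16, 56932142 to 56944864), an ER membrane protein that joins ERAD complexes, had 28.4, 27.8 and 28.4 CPM in shIFITM3 samples, against 15.1, 12.0 and 12.3 CPM in shControl samples. The samples of the groups stood well apart, at 28.2 ± 0.309 CPM in shIFITM3 and 13.1 ± 1.74 CPM in shControl cells, and the log2 difference was 1.12 (SE 0.0879, edgeR adjusted p = 1.08e-10). EDEM1 (chromosome 3, 5187707 to 5219958), a mannosidase-like protein that marks misfolded glycoproteins for disposal, had 140.1, 130.3 and 141 CPM in shIFITM3 samples, against 94.0, 83.0 and 85.9 CPM in shControl samples. No shIFITM3 sample fell within the shControl range, and the log2 fold change was 0.65 (SE 0.0473, edgeR adjusted p = 2.66e-11). SEL1L (chromosome 14, 81471547 to 81533853), the adaptor that holds the ubiquitin ligase SYVN1 in its complex, went the other way, with 30.9, 29.2 and 29.9 CPM in shIFITM3 samples, against 45.7, 41.9 and 41.2 CPM in shControl samples. Every shIFITM3 sample was below every shControl sample (log2 fold change -0.51, SE 0.0612, edgeR adjusted p = 1.42e-07).

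SYVN1, the ERAD ubiquitin ligase also called HRD1, thus moved opposite to its adaptor, at 74.5 ± 3.18 CPM in shIFITM3 and 60.8 ± 2.99 CPM in shControl cells (log2 fold change 0.29, SE 0.0498, edgeR adjusted p = 2.39e-05). In GENCODE release 29 its exons share 398 bases with FAU on the same strand and 356 with MRPL49 on the other. FAU averaged 227 CPM in shIFITM3 and 244 CPM in shControl cells, and MRPL49 166 CPM in shIFITM3 and 129 CPM in shControl cells. The EDEM1 paralogs EDEM2 and EDEM3 had smaller rises on the log2 scale, 0.18 (edgeR adjusted p = 0.0211) and 0.16 (0.0122). The EDEM2 call was lost when either shControl replicate 1, shControl replicate 2 or else shIFITM3 replicate 3 was left out (adjusted p of 0.0723, 0.0705 and 0.0663). The EDEM3 call was lost without shControl replicate 2 or shIFITM3 replicate 3 (0.0783 and 0.0705). OS9, a lectin that delivers glycoproteins to the SYVN1 complex, rose by 0.11 on the log2 scale (edgeR adjusted p = 0.0199). Its call was lost under upper-quartile scaling (adjusted p = 0.0508) and, among single samples left out, for shIFITM3 replicate 2, shIFITM3 replicate 3 and shControl replicate 3 (0.0637, 0.0576 and 0.0681). VCP, the ATPase that extracts proteins from the ER membrane, rose by 0.12 on the log2 scale, at 492 ± 1.96 CPM in shIFITM3 and 454 ± 0.800 CPM in shControl cells (edgeR adjusted p = 9.89e-04). UFD1L, the older symbol of UFD1, a cofactor of VCP, did not pass, with a log2 fold change of -0.086 (95% interval -0.19 to 0.016, edgeR adjusted p = 0.144).

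The derlins, membrane proteins of the retrotranslocation site, differed among themselves. DERL1 had a log2 fold change of -0.10 (95% interval -0.19 to -0.0086, edgeR adjusted p = 0.0578) and DERL2 one of 0.13 (95% interval 0.014 to 0.24, edgeR adjusted p = 0.0511), both just short of the threshold on opposite sides of 0. DERL2 passed under 7 of the 17 alternative settings and DERL1 under 4. DERL3, which is typical of secretory cells, had 18, 31 and 18 counts in shIFITM3 replicates 1, 2 and 3, against 6, 21 and 0 counts in shControl replicates 1, 2 and 3. In CPM these were 0.818, 1.35 and 0.753 in shIFITM3 samples and 0.283, 0.273 and 0 in shControl samples, where the count of 0 allows up to 0.109 CPM. DERL3 was therefore barely expressed in either group, although the groups did not overlap (log2 fold change 2.23, SE 0.529, edgeR adjusted p = 9.55e-04). It was kept for testing only through the shIFITM3 samples, where it is higher, so this call carries little weight. Without shControl replicate 2 the log2 fold change was 2.90. DERL3 exons share 2923 bases with SMARCB1 on the opposite strand, which averaged 66.0 CPM in shIFITM3 and 80.8 CPM in shControl cells, and without a known strand setting reads of the 2 genes may not have been told apart. DERL3 was given in every sample because of its low counts, chosen after its values were seen.

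Among partners of BiP and ER stress proteins 3 of 4 rose and 0 fell by edgeR, with a median log2 fold change of 0.36. Falls also numbered 0 at an unadjusted p under 0.05 and in DESeq2. Over all tested genes 27.7% rose and 28.4% fell. MANF (chromosome 3, 51385291 to 51389397), a small protein that binds BiP and is secreted under stress, had 73.5, 72.7 and 76.0 CPM in shIFITM3 samples, against 49.3, 55.4 and 54.7 CPM in shControl samples. The groups were apart by more than the spread within either (log2 fold change 0.47, SE 0.0511, edgeR adjusted p = 3.21e-08). SDF2L1 (chromosome 22, 21642302 to 21644299), which works with BiP and its J-domain partners, had 14.1, 12.6 and 15.5 CPM in shIFITM3 samples, against 10.6, 9.92 and 11.6 CPM in shControl samples. Its ranges did not overlap either (log2 fold change 0.41, SE 0.105, edgeR adjusted p = 0.00197). HYOU1, the large chaperone that exchanges nucleotide on BiP, was at 264 ± 6.05 CPM in shIFITM3 and 212 ± 2.19 CPM in shControl cells (log2 fold change 0.32, SE 0.0332, edgeR adjusted p = 1.83e-08). CRELD2, a secreted ER stress protein with a disulfide isomerase activity, did not pass (log2 fold change -0.071, 95% interval -0.20 to 0.054, edgeR adjusted p = 0.332). Its promoter, like that of XBP1, holds an ERSE match.

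In the lectin chaperone cycle, which holds glycoproteins until they fold, 1 of the 3 genes rose, 1 fell and 1 did not pass. All 3 are well expressed, and of all tested genes at 5 or more in average log2 CPM 71.3% were called. UGGT1 (chromosome 2, 128091200 to 128195677), which adds glucose back to glycoproteins that are not yet folded, had 169, 167 and 161 CPM in shIFITM3 samples, against 216, 209 and 206 CPM in shControl samples. All shIFITM3 samples were lower (log2 fold change -0.34, SE 0.0361, edgeR adjusted p = 1.85e-08). CALR (chromosome 19, 12938609 to 12944489), the soluble lectin chaperone calreticulin, had 854, 857 and 853 CPM in shIFITM3 samples, against 791, 804 and 765 CPM in shControl samples. The difference was small, with shIFITM3 samples all above the highest shControl sample (log2 fold change 0.12, SE 0.0271, edgeR adjusted p = 6.30e-04). CANX, its membrane-bound homologue calnexin, was at 1379 ± 27.9 CPM in shIFITM3 and 1386 ± 41.1 CPM in shControl cells (log2 fold change -0.0060, 95% interval -0.061 to 0.049, edgeR adjusted p = 0.866).

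The disulfide isomerases, which form and shuffle disulfide bonds, were close to their control level. Of 9 tested genes 0 rose and 2 fell (22.2%) by edgeR, against 27.7% and 28.4% of all tested genes. The median log2 fold change of the 9 was 0.030. At an unadjusted p under 0.05 and in DESeq2 with adjustment the rises also numbered 0. The falls were in ERP29 (chromosome 12, 112013426 to 112023449), a chaperone with a thioredoxin fold but no active disulfide site, and ERP44 (chromosome 9, 99979185 to 100099000), which retrieves ER oxidases from the early secretory pathway. ERP29 had 105, 102 and 107 CPM in shIFITM3 samples, against 117, 119.9 and 119 CPM in shControl samples (log2 fold change -0.18, SE 0.0399, edgeR adjusted p = 4.09e-04). ERP44 had 77.3, 74.5 and 76.7 CPM in shIFITM3 samples, against 82.1, 84.4 and 85.1 CPM in shControl samples (log2 fold change -0.14, SE 0.0435, edgeR adjusted p = 0.00835). In both genes the groups did not overlap. The abundant isomerases gave narrow intervals that included 0. P4HB, the founding member of the family, was at 689 ± 11.3 CPM in shIFITM3 and 674 ± 1.97 CPM in shControl cells, with a 95% interval of -0.025 to 0.086 for the log2 fold change. Those of PDIA3, which works with the lectin chaperones, PDIA4 and PDIA6 were -0.0071 to 0.11, -0.037 to 0.090 and -0.083 to 0.058. For PDIA3 every shIFITM3 sample lay above every shControl sample, although the gene did not pass. PDIA5, which shares 490 exon bases with SEC22A on the same strand (log2 fold change 0.070), and TXNDC11 (0.092), a thioredoxin-domain protein that has been tied to ERAD, did not pass either. TXNDC5 had 3.95, 6.0 and 2.13 CPM in shIFITM3 samples, against 4.05, 3.22 and 4.42 CPM in shControl samples, so its shIFITM3 samples spread on both sides of the controls (log2 fold change 0.074, 95% interval -0.43 to 0.58). In GENCODE release 29 TXNDC5 shares 2658 bases of exon with the read-through gene BLOC1S5-TXNDC5 on the same strand, which had 0 counts in the table, so its level is uncertain. ERO1B had 2, 0 and 6 counts in shIFITM3 replicates 1, 2 and 3, and 0, 4 and 2 counts in shControl replicates 1, 2 and 3, and no difference was detectable at this depth.

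Of the translocon genes more fell than rose. Of 8 genes of the channel and its partners 4 fell (50%) and 1 rose (12.5%), and their median log2 difference was -0.11. Of all tested genes at 5 or more in average log2 CPM, 40.4% fell and 30.9% rose. The falls were thus near the share over well-expressed genes and the rises below it, a difference that was not tested. SSR1 (chromosome 6, 7281143 to 7313199), a subunit of the translocon-associated TRAP complex, had 150.0, 148 and 148 CPM in shIFITM3 samples, against 168, 161 and 168 CPM in shControl samples (log2 fold change -0.15, SE 0.0367, edgeR adjusted p = 0.00126). SEC63 (chromosome 6, 107867756 to 107958208), a J-domain protein that brings BiP to the channel, had 125, 114 and 127 CPM in shIFITM3 samples, against 137, 133 and 136 CPM in shControl samples (log2 fold change -0.15, SE 0.0430, edgeR adjusted p = 0.00588). In both genes every shIFITM3 sample was below every shControl sample. SSR2 (chromosome 1, 156009048 to 156020951), another TRAP subunit, had 134, 135 and 138 CPM in shIFITM3 samples, against 146, 148 and 149 CPM in shControl samples (log2 fold change -0.13, SE 0.0370, edgeR adjusted p = 0.00567). The SSR2 call was lost after the GC and length correction, with a log2 fold change of -0.063 and an adjusted p of 0.106. SEC61A1, the pore of the channel, was at 473 ± 5.92 CPM in shIFITM3 and 511 ± 6.72 CPM in shControl cells (log2 fold change -0.11, edgeR adjusted p = 0.00187), and 344 bases of its exons overlap RUVBL1 on the other strand. The TRAP subunit SSR3 was the 1 rise, by 0.10 on the log2 scale (edgeR adjusted p = 0.0262). Its call was lost under upper-quartile scaling (0.0671) and without shControl replicate 2, shControl replicate 3 or shIFITM3 replicate 3 (adjusted p of 0.0953, 0.109 and 0.167). The small channel subunits SEC61B (log2 fold change -0.11) and SEC61G (-0.011), and SEC62 (-0.0074), the partner of SEC63, did not pass, with 95% intervals of -0.21 to -0.0057, -0.11 to 0.087 and -0.079 to 0.065.

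**Figure D3:**
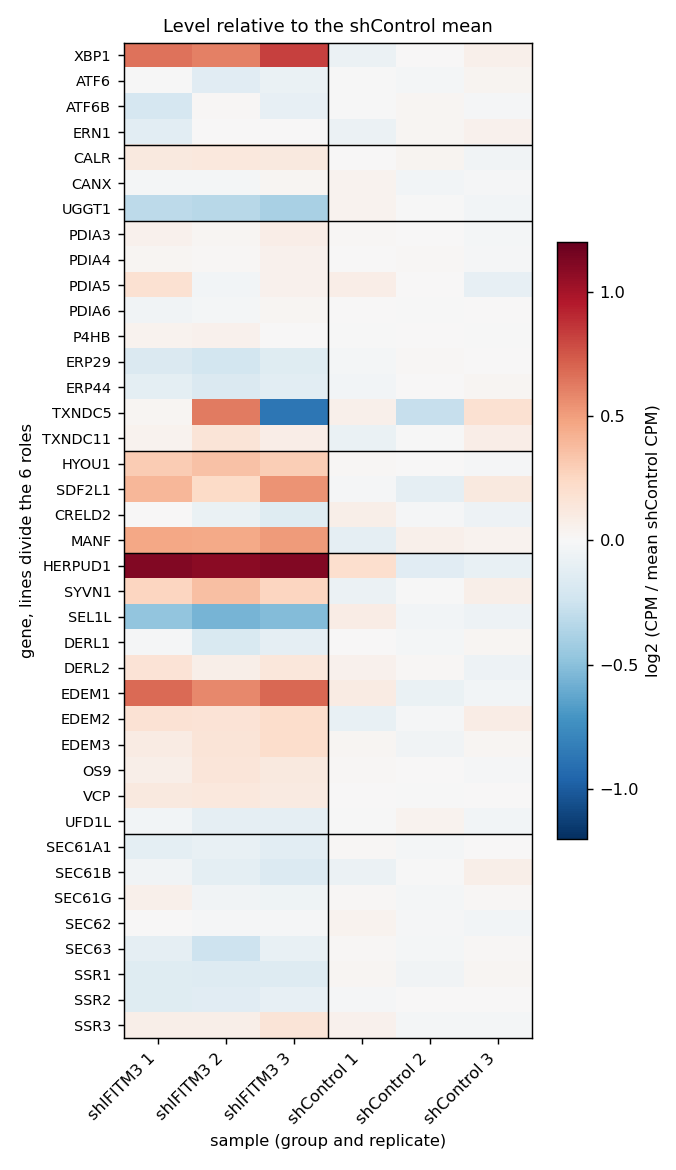
Log2 of each sample's CPM over the mean shControl CPM (colour, red above and blue below) for 39 genes in rows and the 6 samples in columns, shIFITM3 on the left, leaving out ERO1B and DERL3 for their counts of 0. The shIFITM3 columns match each other in HERPUD1, EDEM1, XBP1, MANF and SEL1L, while TXNDC5 runs from below to above the control level.

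Beyond the members, other genes of the same pathways were counted, and values in brackets after a gene are log2 fold changes. Of 20 other ER chaperones and cofactors 7 rose (35%) and 4 fell (20%), with a median log2 fold change of 0.035. Over all tested genes 27.7% rose and 28.4% fell. The oxidase gene ERO1A, paralog of ERO1B, rose to 254 ± 7.10 CPM in shIFITM3 cells, against 156 ± 6.70 CPM in shControl cells (log2 fold change 0.71, edgeR adjusted p = 8.54e-14). DNAJB9, a J-domain partner of BiP and a known XBP1 target, was at 29.2 ± 1.82 CPM in shIFITM3 and 16.8 ± 1.01 CPM in shControl cells (0.81, edgeR adjusted p = 4.02e-09), and the carbohydrate-binding MLEC fell by 0.26 on the log2 scale. BiP itself (HSPA5, outside the rule for named genes) rose by 0.18 on the log2 scale, at 825 ± 35.4 CPM in shIFITM3 and 731 ± 13.5 CPM in shControl cells (edgeR adjusted p = 3.12e-05). Of 21 other ERAD components 10 rose and 4 fell (median 0.082). ERLEC1 (0.36), a lectin like OS9, and the VCP cofactor NPLOC4 (0.25) rose, and the membrane scaffold ERLIN1 (-0.59) fell. Of 25 other genes of protein entry, signal peptidase and N-glycosylation 2 rose and 12 fell (median -0.084). TRAM2 (0.35) rose, and RPN2 (-0.32), a subunit of the oligosaccharyltransferase, and SRPRB (-0.43), of the signal recognition particle receptor, fell. By count, rises outnumbered falls in both ERAD lists, and falls outnumbered rises in both lists of protein entry, also under each scaling alternative and in DESeq2. Most of these genes are well expressed, and of all tested genes with an average log2 CPM from 5 upwards 30.9% rose and 40.4% fell. At that level 5 of 9 ERAD members (55.6%) and 10 of 18 other ERAD genes (55.6%) rose, and 1 (11.1%) and 3 (16.7%) fell. Falls among the 8 translocon members (50%) and among 22 other entry genes (50%) were near the share over all genes, and rises were 12.5% and 9.09%. The difference between the lists was not tested. All lists were chosen with earlier results of these data known, so they are not independent support for each other.

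Genes of the PERK and ATF4 arm were divided, as 5 of 10 rose and 3 fell (median 0.11). Over all tested genes 27.7% rose and 28.4% fell. PPP1R15A, which restores translation after PERK acts, was at 164 ± 10.5 CPM in shIFITM3 and 68.9 ± 2.88 CPM in shControl cells (1.25, edgeR adjusted p = 1.50e-16). TRIB3 (0.62), a pseudokinase induced by ATF4 and CHOP, and the PERK gene EIF2AK3 (0.87) rose as well. The remaining rises were in DDIT3 (0.61), the gene of CHOP, and CEBPB (0.16). The 3 falls were in ASNS (-0.46), PPP1R15B (-0.16) and ATF4 itself (-0.10). Of 20 genes that regulate ATF6 and XBP1 or carry proteins out of the ER 7 rose and 7 fell (median -0.018). Among the rises were MBTPS1 (0.40), the protease that makes the first cut in ATF6 and in SREBP factors, CREB3L2 (0.66), a related membrane-bound factor, and TRAF2 (0.43), an adaptor that binds active IRE1. SEC24D (0.62), KDELR3 (0.49), SEC23B (0.16) and WFS1 (0.14) rose too. The falls were YY1 (-0.40), NFYA (-0.26), NFYC (-0.20), MBTPS2 (-0.19), LMAN1 (-0.15), KDELR1 (-0.13) and RTCB (-0.12). Folding and degradation genes of the cytosol were mostly lower, with 15 of 19 cytosolic chaperones lower and 3 higher (median -0.28) and 22 of 31 proteasome subunits lower and 0 higher (median -0.16), all of them well expressed. The shares lower were 78.9% and 71.0%. Of all tested genes at 5 or more in average log2 CPM, 40.4% were lower and 30.9% higher. No proteasome subunit was higher at an unadjusted p under 0.05 in edgeR, or in DESeq2 with adjustment, and 3 were after the GC and length correction. DNAJB1 (0.59) rose, and DNAJA1 (-0.56), CCT6A (-0.40), PSMA6 (-0.49), PSMB3 (-0.38) and PSMD1 (-0.29) fell.

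**Figure D4:**
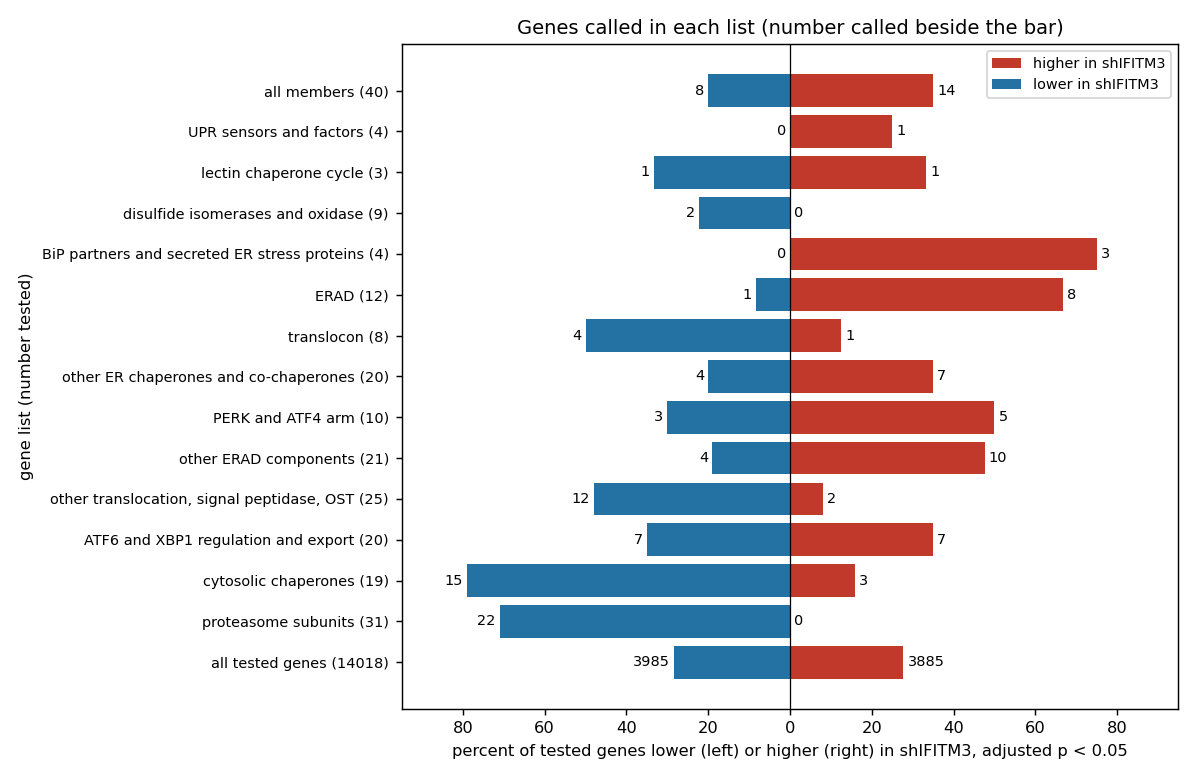
Percent of tested genes called lower (left, blue) and higher (right, red) in shIFITM3 (horizontal axis) for the members, their 6 roles, the other lists and all tested genes (rows, with the number tested), and the number called beside each bar. ERAD has 8 rises and 1 fall, the translocon 1 rise and 4 falls, and the proteasome 0 rises and 22 falls.

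Promoter letters were compared with the calls as a description and not as a test. The members are known ER genes and were chosen with earlier results of these data known. Neither the share of their windows with a match nor the calls beside it is therefore independent support. RefSeq promoter windows matched 37 of the 41 members. ERSE was found in 5 of the 37 windows (13.5%) and in 0.0806% of all 27305 windows, ERSE-II in 3 (8.11%) and 0.0549%, and UPRE in 4 (10.8%) and 0.795%. The 11 members with at least 1 of them were XBP1, CALR, CANX, ERO1B and CRELD2 with ERSE, SDF2L1 and HERPUD1 with ERSE-II, HYOU1 with ERSE-II and UPRE, and TXNDC11, VCP and SEC62 with UPRE. Of the 10 that were tested 6 rose and 0 fell by edgeR, with a median log2 fold change of 0.12. None of the 10 fell at an unadjusted p under 0.05 or in DESeq2 either. Of the 26 tested members with a window but no match 7 rose and 8 fell, with a median of -0.012. Among all other tested genes with a window, 41 of 117 with a match rose (35.0%) and 28 fell (23.9%). Of the 10843 without a match 27.4% rose and 30.0% fell. Most of the 117 hold UPRE letters only. With ERSE or ERSE-II letters, 5 of 7 tested members rose and 0 fell, and 7 of 18 other tested genes rose and 5 fell. Over every start that RefSeq lists, PDIA6 also held ERSE letters, and TXNDC5 and SSR3 held UPRE letters. EDEM1 and MANF rose with none of these letters in the window, and CANX and CRELD2 carry ERSE and did not pass.

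**Figure D5:**
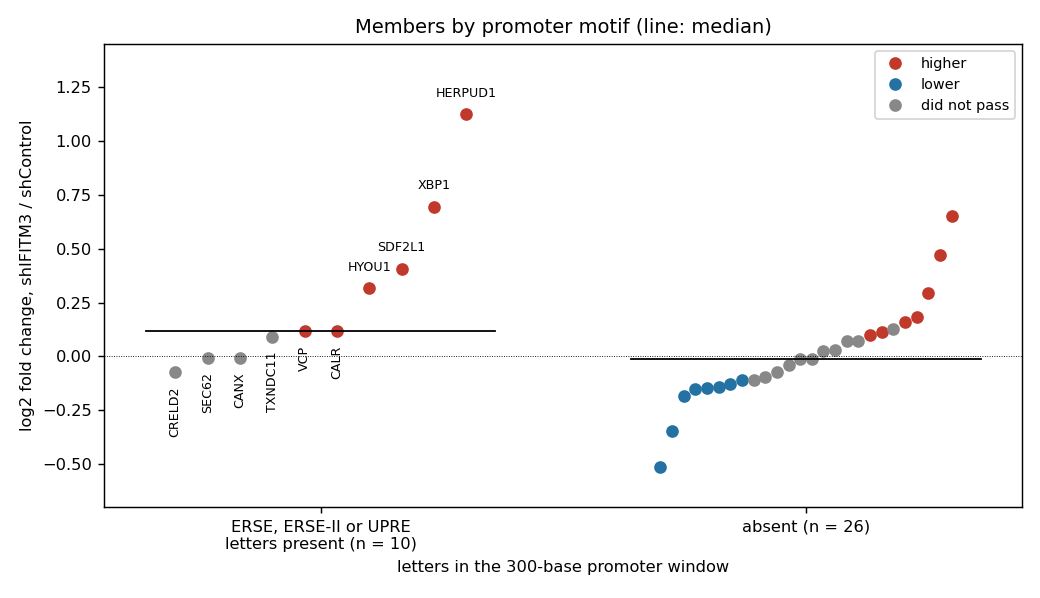
Log2 fold change of shIFITM3 over shControl (vertical axis) for the tested members with a promoter window, as points coloured by call, split by whether the window holds ERSE, ERSE-II or UPRE letters (left, n = 10) or none (right, n = 26), with a line at each median. HERPUD1, XBP1, SDF2L1 and HYOU1 lie highest on the left, and all 8 falls lie on the right.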

How the data were processed

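The table that the authors deposited holds raw, whole-number read counts per gene symbol for 6 samples. The submitters' processing notes name HISAT2 2.2.1 and featureCounts of Subread 2.0.6, with fastp 0.23.4, FastQC 0.12.1 and SAMtools 1.20, and the build hg38. Annotation and strand setting: not given in the sources used here. By GENCODE release 29, 11 of the 41 members overlap exons of a tested gene, 3 of them with a partner on the same strand. Reads of such genes may not have been told apart.

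The members and lists were chosen with earlier results of these data known. The fit used edgeR 4.0.16 in R 4.3.3: filterByExpr by group (14018 genes), TMM factors between 0.995 and 1.006, glmQLFit on group alone, and glmQLFTest, two-sided, with Benjamini-Hochberg adjustment over all tested genes and a threshold of 0.05. SE was taken as the size of the log2 fold change divided by the root of F, and 95% intervals use its t quantile. CPM are counts per 1000000 TMM-scaled counts of the tested genes, as mean ± SD. A count of 0 allows 3 counts, 0.0390 to 0.141 CPM by library, for counting error only.

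Values in every sample are given for XBP1, ATF6, ATF6B, ERN1 and IFITM3. In each other role they are given for the called genes with the 2 largest absolute log2 fold changes (3 in roles of 8 or more) with average log2 CPM of 2 or more. The other lists name up to 3 genes with the smallest p. Others named were chosen after their values were seen. Replicates of a group differed by more than counting noise (chi-square per degree of freedom 2.78 to 5.06). Positions are RefSeq's on GRCh38.p14. Alternatives were scaling by RLE, by upper quartile or by total count, a strict filter (50 counts in 3 samples) or none, DESeq2 1.42.0, limma-voom (limma 3.58.1), the replicate block, a 1.2-fold test, thinning the deepest library, leaving out each sample and, added after seeing the data, a GC and length correction. The fitting was tested on simulated data.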

Additional observations from a re-analysis of the deposited data

How the results depend on the processing

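The main counts of 14 members higher and 8 lower lay between 10 and 15 and between 8 and 10 in the 16 alternatives other than the test against a 1.2-fold change, and between 10 and 14 and between 8 and 10 when single samples were left out. Against a 1.2-fold change 5 members were higher and 2 lower, and 2028 and 1470 of all tested genes. Over all tested genes, leaving out single samples gave 3560 to 3736 higher and 3564 to 3844 lower. With the replicate block 14 members were higher and 9 lower, the added one being DERL1 (adjusted p = 0.0340), and no other member call changed. Same-numbered samples of the groups did not deviate together (r = 0.016, 0.033 and 0.0063 over genes), 3 of 6 samples were closest to their own number, and the numbers are not taken to pair the samples. IFITM3 stayed lower in all 17. No called member changed sign. Of the 22 called members 17 kept the call under each of those 16 alternatives in which they were tested (the strict filter leaves out DERL3). Signs changed in 6 members that passed in none of the 17; values are log2 fold changes. CANX was at 0.0046 with total-count scaling, 0.0063 with the strict filter, 0.0031 in limma-voom and 0.017 after the GC and length correction. SEC62 was at 0.0031, 0.0049 and 0.0035 with total-count scaling, the strict filter and that correction, SEC61G at 0.0014 and 0.040 with the last 2, and PDIA6 at 0.012 with the correction. With single samples left out, CANX ranged from -0.024 to 0.017, SEC62 from -0.022 to 0.013, SEC61G from -0.048 to 0.0070, PDIA6 from -0.032 to 0.000072, ERN1 from -0.066 to 0.0017 and TXNDC5 from -0.34 to 0.39. The cause was not tested. On 1 strand only, ERSE matched 2 member windows, ERSE-II 1 and UPRE 3. Over every listed start, tried after seeing the data, the counts were 6, 3 and 6. TXNDC5, DERL3 and ERO1B are limited by depth.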

Other observations

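Levels per length are given here as CPM per kilobase of GENCODE release 29 exons. The annotation that the authors counted on is not given in the labels. The lectin chaperones CALR and CANX were the most abundant of the 41 members on this scale, which was not computed for other genes. CALR was at 315 in shIFITM3 and 289.9 in shControl cells, and CANX at 221 in shIFITM3 and 222 in shControl cells. P4HB was at 129.9 in shIFITM3 and 127 in shControl cells, and PDIA3 at 121 in shIFITM3 and 117 in shControl cells. XBP1 was at 13.1 in shIFITM3 and 8.10 in shControl cells, HERPUD1 at 5.47 in shIFITM3 and 2.55 in shControl cells, and EDEM1 at 20.3 in shIFITM3 and 13.0 in shControl cells. These 3 genes, all of which rose, thus lay below the 4 chaperones and isomerases on this scale. The sensor gene ERN1 was at 0.520 in shIFITM3 and 0.533 in shControl cells.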
